A study of Glycine soja with 14 samples.

Results

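The step between 3 h and 6 h in bicarbonate was examined in young leaves of Glycine soja, the wild soybean from which the crop was domesticated, in line G07256. The comparison used 4 of the series' 14 arrays, the 2 arrays of 6 h against the 2 arrays of 3 h, chosen by their labels alone. Both groups were 21-day-old seedlings that had been moved from 1/4-strength Hoagland's solution into the same solution with 50 mM NaHCO3 at pH 8.5, one for 6 h and the other for 3 h. Each array held leaf RNA pooled from 3 plants, and the labels call the 2 arrays of a time independent biological replicates. The other arrays were of plants before bicarbonate (0 h) and at 4 more times in it (0.5 and 1 h, and 12 and 24 h). They did not enter the 6 h minus 3 h difference. They entered the estimate of the spread, the choice of each gene's probe set, the tests of other steps and the description of later and earlier levels. The growth room gave 12 h light and 12 h dark, and at which clock hour each harvest fell is not given in the sources used here. No untreated plants harvested at the same hours as the 6 h and 3 h plants were analysed here, so 3 further hours of treatment and 3 further hours of the day cannot be told apart.

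Bicarbonate makes the root medium alkaline, adds sodium, and lowers the solubility of iron and other micronutrients. Leaves respond through changes in ion and water transport, hormones, protective proteins and transcription factors. Many leaf transcripts also follow the hour of the day: in plants the morning factors of the clock, LHY and its relatives, and the evening factors such as LUX repress each other in a daily loop, and genes of lipid, nitrogen and carbon metabolism run with it.

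Summed intensity lay between 7413140 and 8230030 over all 14 arrays, and 66.1 to 77.2% of the 37593 soybean probe sets lay above background, which was set on each array at the 95th percentile of the probe sets for other organisms. The 2 arrays of 6 h correlated at 0.983 across probe sets and the 2 arrays of 3 h at 0.967. The SD of the difference between replicate arrays was 0.304 log2 at 6 h, against 0.424 log2 at 3 h, and 0.284 to 0.438 log2 over the 7 times. The 18S ribosomal RNA probe set read 1686 and 2212 in the 6 h arrays, against 946 and 751 in the 3 h arrays. The 6 h readings were the 2 highest of the 14 arrays, the 10 arrays of the other times reading 25.2 to 556, and its part in the results was not tested. The leaf label was checked on 3 markers that the array annotation names. CAB3, a chlorophyll-binding protein of the light-harvesting antenna, read 11088 and 11146 at 6 h, against 11022 and 12158 at 3 h, and PSAD and CHLH also lay above background on all 4 arrays. Summed leaf markers were 23464 and 22972 at 6 h, against 23577 and 25236 at 3 h. Of 8 seed markers found, 7 were below background on all 4 arrays and PM23 was the exception, with 392 and 348 at 6 h, against 707 and 793 at 3 h. The seed sum was 455 and 425 at 6 h, against 761 and 847 at 3 h. The 3 nodule and root markers summed to 397 and 355 at 6 h, against 392 and 408 at 3 h, with N-26 and UR2 above background on all 4 arrays and PRP1 on 1. In pooled leaf RNA, fewer cells of a type and less RNA per cell cannot be told apart.

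The 2 arrays of 3 h differed for several gene groups. In 3 h replicate 1, 13 of 16 jasmonate genes were brighter than in 3 h replicate 2, with a median gap of 0.86 log2, against a median of -0.04 log2 over the 6029 genes with 1 symbol. In other lists 3 h replicate 2 was the brighter, with 3 h replicate 1 higher in 1 of 9 PEP carboxylase genes (median gap -0.62 log2) and in 3 of 20 phosphate genes (-0.24 log2). NAC27, a NAC-family transcription factor, read 152 and 134 at 6 h, against 1895 and 108 at 3 h. AOC3, an allene oxide cyclase of jasmonate synthesis, read 184 and 210 at 6 h, against 1634 and 159 at 3 h. DREB5, of the dehydration-responsive AP2 family, read 8.81 and 28.2 at 6 h, against 362 and 24.4 at 3 h. For each of these 3 genes, 3 h replicate 1 alone was high and 3 h replicate 2 lay among or beside the 6 h arrays. Results that rest on 3 h replicate 1 are given with and without it or its partner below.

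At 6 h, 1874 of the 37593 soybean probe sets differed from 3 h, 4.98% of those tested (limma, Benjamini-Hochberg adjusted p below 0.05). Of these, 767 rose (2.04%) and 1107 fell (2.94%), and 284 rises and 627 falls were at least 2-fold. Differences are on the log2(scaled intensity + 16) scale, with all arrays scaled to the same soybean median, which understates the change of dim genes, and they run 6 h minus 3 h. The largest rise was 3.87 and the largest fall -3.93, while the median over all probe sets was 0.02. The 6 h and 3 h arrays did not overlap for 19499 probe sets (51.9%), a far larger share than the 4.98% called, so a lack of overlap alone says little in a comparison of 2 arrays with 2. All 1874 called probe sets were among them, so a lack of overlap adds nothing to a call. Genes named by rule and past the test were picked for it, so where stated below it only describes their values. Most called probe sets carried no gene symbol, 1312 of the 1874, and 528 had exactly 1. Among the 1003 genes whose symbol is a name and no LOC number, 86 changed (8.57%), 33 higher and 53 lower, with a median of -0.02. The count of 1874 fell to 915 without 3 h replicate 1, to 761 without 6 h replicate 1 and to 372 without 6 h replicate 2, and was 1292 without 3 h replicate 2. Of the 69 genes named here by rule, 62 passed the test, and 25 of those passed again with each of the 14 arrays left out in turn; these are described below as held. Arrays of other times, which enter only the spread, also ended calls: 10 of the 62 when a 24 h array was left out, 6 for a 1 h array, 5 for 0.5 h, 4 for 12 h and 0 for 0 h.

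**Figure D1:**
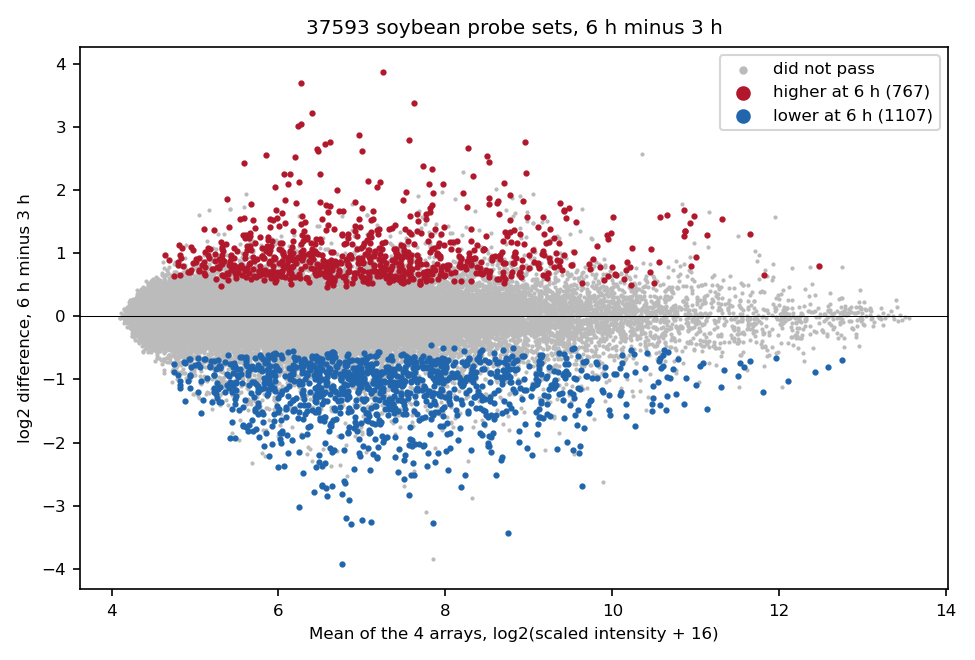
Each point is 1 of 37593 soybean probe sets, with the mean of the 4 arrays (log2 of scaled intensity + 16) on the x axis and the log2 difference, 6 h minus 3 h, on the y axis. The 767 red points rose, the 1107 blue points fell and the grey points did not pass; the falls reach -3.93 and the rises 3.87, and calls occur at dim and at bright levels.

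The circadian clock genes moved in both directions. Of the 4 on the list, 1 rose, 2 fell and 1 did not pass, with a list median of -0.38. That is 75% called, beside 8.57% of all genes with a name. LUXC, a relative of LUX ARRHYTHMO of the evening complex, had scaled intensities of 263 and 296 at 6 h, against 53.6 and 56.6 at 3 h. Both 6 h arrays stood far above both 3 h arrays, a log2 difference of 2.05 ± 0.20 (SE, n = 2 arrays each, adjusted p = 0.000243). The 1 other probe set of LUXC was not called. LCL3, an LHY/CCA1-like morning factor, read 23.2 and 29.8 at 6 h, against 111 and 172 at 3 h. It fell by 1.87 ± 0.23 (adjusted p = 0.00145) with no overlap, and both calls held.

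LHY, the morning factor LATE ELONGATED HYPOCOTYL, read 682 and 748 at 6 h, against 1579 and 1730 at 3 h. Its fall was 1.19 ± 0.28 (adjusted p = 0.0336), and the call ended without each of the 4 compared arrays and without each 0.5 h and 24 h array (adjusted p up to 0.159). ZTL1, a ZEITLUPE-type F-box protein that targets clock proteins for degradation, read 201 and 230 at 6 h, against 144 and 170 at 3 h, a difference of 0.42 ± 0.17 that did not pass (adjusted p = 0.198).

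Over the whole series LUXC ran a different course from LCL3 and LHY. In time order, mean LUXC was 58.6 at 0 h, 48.7 at 0.5 h, 56.2 at 1 h, 55.1 at 3 h, 280 at 6 h, 391 at 12 h and 40.7 at 24 h, so it was flat up to 3 h, high at 6 and 12 h and low again at 24 h. Mean LCL3 was 118, 213, 131, 142, 26.5, 11.2 and 281 over the same times. Mean LHY was 1781, 2069, 1846, 1654, 715, 106 and 2592. For both of these morning factors the levels were lowest at 12 h and highest at 24 h.

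**Figure D2:**
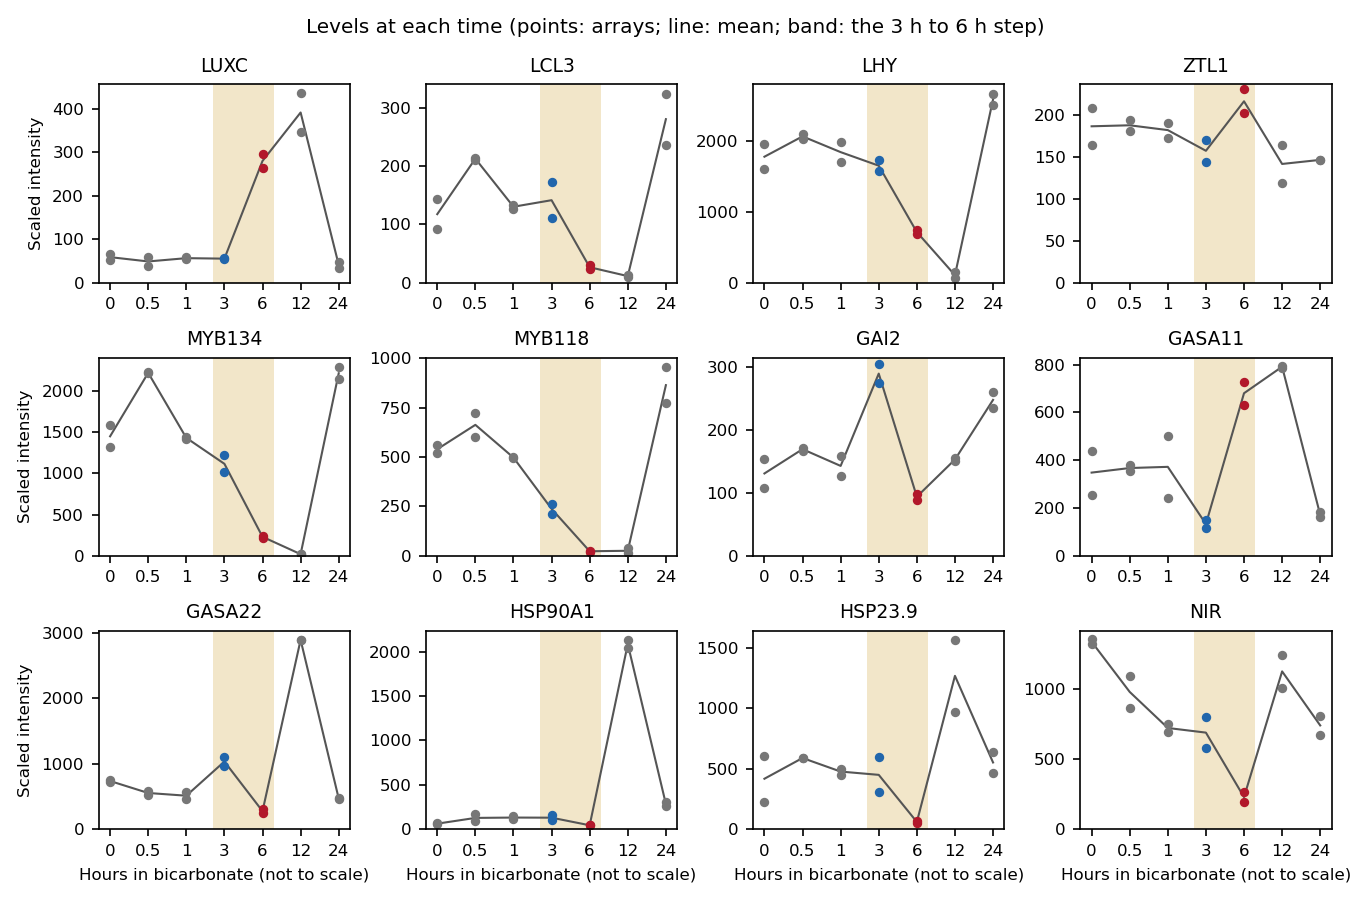
Scaled intensity (y axis, linear) at each time in bicarbonate (x axis, hours, not to scale) for 12 genes; points are arrays, the line joins the means of 2 arrays, red marks 6 h and blue 3 h, and the band marks the step. LUXC stays near 50 to 60 up to 3 h and reaches a mean of 280 at 6 h and 391 at 12 h, while LCL3, LHY, MYB134 and MYB118 are low at 6 and 12 h and high at 24 h; HSP90A1 dips to 43.0 at 6 h before a mean of 2088 at 12 h.

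In the list of light and flowering genes, 1 of 10 rose, 1 fell and 8 did not pass (20% called, beside 8.57% of all genes with a name). PHYA, the phytochrome A photoreceptor of far-red light, read 361 and 375 at 6 h, against 248 and 242 at 3 h, a rise of 0.56 ± 0.13 (adjusted p = 0.0328). COL2A, a CONSTANS-like factor of the photoperiod pathway, read 475 and 559 at 6 h, against 849 and 917 at 3 h, a fall of 0.76 ± 0.18 (adjusted p = 0.0378). Replicates of each gene lay close together and the groups were apart, but both calls ended without each of the 4 compared arrays (adjusted p up to 0.21 and 0.198), and that of COL2A also ended with quantile normalization. Among the 18 photosynthesis and chlorophyll genes 1 fell (5.56%, near the 5.28% of all genes with a name), with a list median of -0.04. This was ELIP, an early light-induced protein that binds chlorophyll under light stress, with 2743 and 3444 at 6 h, against 6079 and 6542 at 3 h. The 3 h arrays were about alike and well above the 6 h arrays (-1.03 ± 0.18, adjusted p = 0.00847, and 0.0727 without 6 h replicate 1).

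MYB transcription factors, a large family that regulates metabolism, growth and daily timing, held several of the steepest falls. Of 65 MYB genes 3 rose and 7 fell (4.62% and 10.8%), beside 3.29% and 5.28% of all genes with a name. Without 6 h replicate 2 the falls numbered 4, and the 3 rises became 1 without 3 h replicate 1 and 0 without each of the other 3 compared arrays. MYB118 read 21.6 and 25.0 at 6 h, against 214 and 263 at 3 h. MYB134 read 244 and 218 at 6 h, against 1013 and 1221 at 3 h. MYB114 read 113 and 84.0 at 6 h, against 445 and 548 at 3 h. In all 3 genes the 6 h arrays were alike and several times dimmer than both 3 h arrays. The log2 differences were -2.69 ± 0.24 for MYB118 (adjusted p = 0.000156), -2.19 ± 0.14 for MYB134 (adjusted p = 3.49e-05) and -2.17 ± 0.24 for MYB114 (adjusted p = 0.000719), and all held.

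MYB186 read 284 and 299 at 6 h, against 935 and 1037 at 3 h (-1.70 ± 0.23, adjusted p = 0.00223, held). MYB138 read 161 and 164 at 6 h, against 533 and 747 at 3 h (-1.86 ± 0.41, adjusted p = 0.0264), and its call ended without each of the 4 compared arrays (adjusted p up to 0.157). The other 2 MYB genes that fell were MYB70, at -1.29 (adjusted p = 0.00529), and MYB52, at -0.98 (adjusted p = 0.0421). The later course of the MYB genes differed. MYB134 fell further in the step after it, with a log2 difference of -2.75 between 6 h and 12 h (adjusted p = 2.73e-06), to a mean of 20.7 at 12 h, against 231 at 6 h, and stood at 2216 at 24 h. MYB118 had means of 25.8 at 12 h, against 23.3 at 6 h, and 865 at 24 h, so its low level was already present at 6 h. Its level had also been lower at 3 h (238) than at 1 h (498), a difference of -1.02 that did not pass (adjusted p = 0.0506).

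The rises among MYB genes were smaller. MYB127 read 228 and 275 at 6 h, against 79.0 and 92.1 at 3 h (1.39 ± 0.31, adjusted p = 0.0270), and MYB180 read 389 and 376 at 6 h, against 196 and 132 at 3 h (1.17 ± 0.25, adjusted p = 0.0243). MYB93 was the other member that rose, at 0.96 (adjusted p = 0.0339). The 2 calls of MYB127 and MYB180 each ended without 3 or 4 of the compared arrays, with adjusted p up to 0.2 and 0.142: 3 h replicate 2 and either 6 h array for both, and also 3 h replicate 1 for MYB127.

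NAC and WRKY factors, families with many members that respond to salt, wounding and ageing, held 2 calls each, all of them rises by limma. Of 15 NAC genes 2 rose (13.3%, beside 3.29% of all genes with a name), with 4 higher and 3 lower at an unadjusted p below 0.05, while the list median was -0.29, on the other side of 0. Of 52 WRKY genes 2 rose (3.85%, near that 3.29%), with a list median of 0.09. At an unadjusted p below 0.05, 7 WRKY genes were higher and 3 lower. Of all 1003 genes with a name, 112 were higher and 153 lower at that p. NAC12 read 622 and 473 at 6 h, against 146 and 159 at 3 h (1.73 ± 0.32, adjusted p = 0.0112). NAC34 read 370 and 146 at 6 h, against 49.3 and 78.5 at 3 h (1.67 ± 0.40, adjusted p = 0.0365). The 6 h arrays of NAC34 differed from each other more than the 3 h arrays did, and its lower 6 h value was still above both. WRKY57 read 131 and 56.8 at 6 h, against 26.5 and 14.8 at 3 h, 1 of them above background (1.52 ± 0.35, adjusted p = 0.0327), and WRKY41 read 72.2 and 83.8 at 6 h, against 30.4 and 34.1 at 3 h (0.96 ± 0.17, adjusted p = 0.00886). None of these 4 calls held: those of NAC12 and NAC34 both ended when the first replicate of 3 h or of 6 h was left out, that of NAC12 also without 6 h replicate 2, and that of NAC34 also without 3 h replicate 2 or any 12 h array (adjusted p up to 0.216). The call of WRKY57 ended with either 3 h array or 6 h replicate 1 left out (adjusted p up to 0.202), and that of WRKY41 without 3 h replicate 1 and 6 h replicate 2 (up to 0.103).

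The NAC list also depended on which 3 h arrays were used. Without 3 h replicate 2, which leaves the brighter replicate 1 as the only 3 h array and assumes that it varies like the other groups, 5 NAC genes were lower at 6 h: NAC2, NAC3, NAC4, NAC19 and NAC27. NAC3 read 393 and 333 at 6 h, against 2090 and 397 at 3 h, and NAC4 read 82.2 and 76.3 at 6 h, against 1175 and 71.5 at 3 h. With all arrays, NAC3 differed by -1.30 (adjusted p = 0.245) and NAC4 by -1.76 (adjusted p = 0.306). No fall of these genes is therefore called.

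bZIP factors, which include regulators of abscisic acid and light responses, changed in 1 of 58 cases in each direction, a share below the 8.57% of all genes with a name. BZIP36 read 20.5 and 18.7 at 6 h, where it was below background on both arrays, against 69.9 and 62.3 at 3 h. It was at least 3.20-fold lower at 6 h (adjusted p = 0.00145, held). Such a bound sets the mean of the bright arrays against, for each dim array, its background or the measured signal, whichever was larger. BZIP28 read 244 and 257 at 6 h, against 136 and 98.5 at 3 h (1.02 ± 0.23, adjusted p = 0.0283), and its call ended without 3 h replicate 2 or either 6 h array (adjusted p up to 0.183).

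Gibberellin-related genes showed opposed changes within 1 family. The list of 23 gibberellin and cytokinin genes held 3 rises and 3 falls (26.1% called, beside 8.57% of all genes with a name), with a list median of -0.27, and all 3 rises were GASA genes, which encode small cysteine-rich peptides regulated by gibberellin. GASA11 read 729 and 631 at 6 h, against 117 and 150 at 3 h (2.23 ± 0.30, adjusted p = 0.00218, held). GASA32 read 97.2 and 191 at 6 h, against 23.4 and 10.5 at 3 h, 1 of them above background (2.24 ± 0.30, adjusted p = 0.00200, held). GASA14 read 2123 and 3220 at 6 h, against 1034 and 725 at 3 h (1.58 ± 0.25, adjusted p = 0.00545, and 0.0727 without 6 h replicate 2). All 6 h arrays of the 3 genes lay above all of their 3 h arrays, which the choice of named genes required. The probe sets of GASA32 and GASA14 carry the same cluster number in the array's naming, so their signals may share transcripts. Both are nevertheless counted among the 3 rises of the list.

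GASA22 went the other way, with 244 and 303 at 6 h, against 1102 and 960 at 3 h (-1.86 ± 0.15, adjusted p = 0.000115, held). GAI2, a DELLA protein that restrains gibberellin responses, read 98.2 and 89.3 at 6 h, against 303 and 274 at 3 h (-1.47 ± 0.17, adjusted p = 0.00075, held). The 1 other probe set of GAI2 was not called. GA2OX6, of the gibberellin 2-oxidases that inactivate the hormone, read 13.2 and 20.4 at 6 h, against 60.2 and 37.4 at 3 h, with neither 6 h array above background (adjusted p = 0.0265). In time these members did not share a course. Mean GASA22 was 509 at 1 h, 1031 at 3 h, 274 at 6 h and 2888 at 12 h, so 6 h was a low between 2 higher levels. The fall of GAI2 followed a rise of 0.95 between 1 h and 3 h (adjusted p = 0.0214). GASA11 had instead fallen between 1 h and 3 h, by 1.30 (adjusted p = 0.0490), and its difference between 6 h and 12 h was 0.22 (adjusted p = 0.716).

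**Figure D3:**
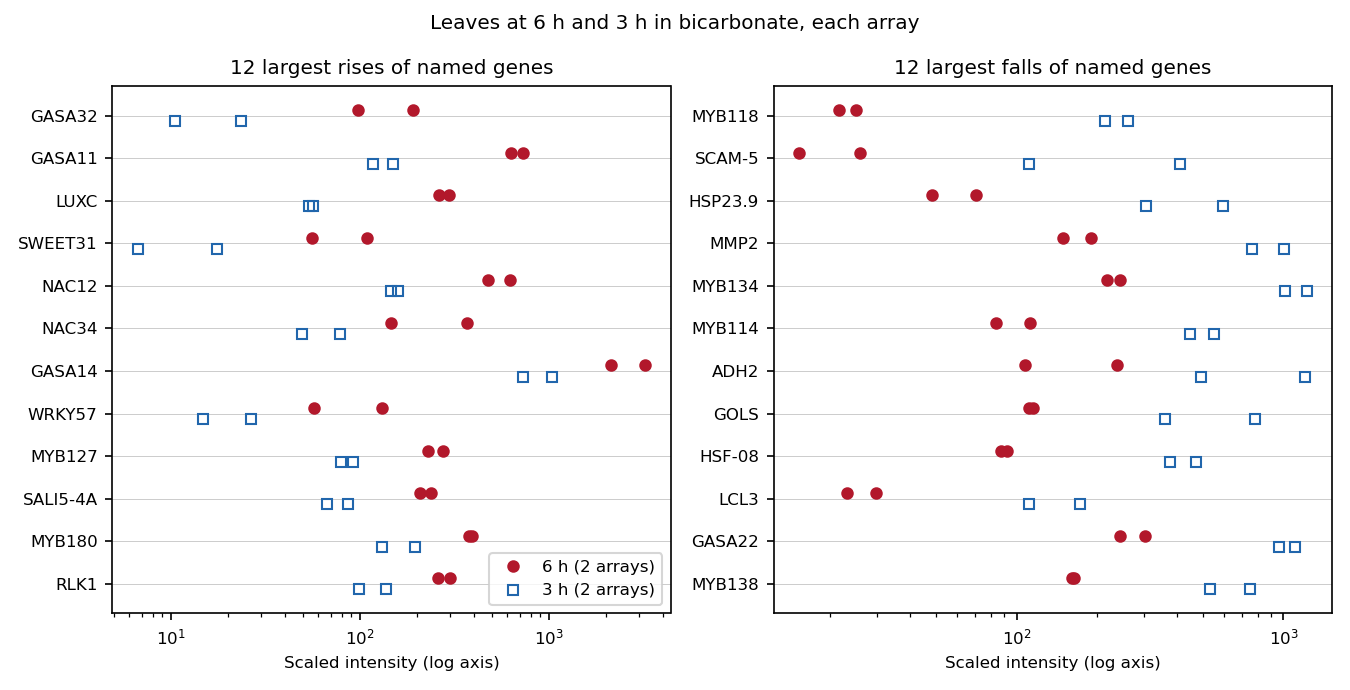
Scaled intensity (log x axis) in each 6 h array (red circles) and each 3 h array (blue squares) for the 12 largest rises (left) and the 12 largest falls (right) among genes with a name. Genes were picked only if both 6 h arrays lay on 1 side of both 3 h arrays, so every gene shown has this. The 2 arrays of 3 h lie far apart for SCAM-5, with 408 and 111, and close together for LUXC, with 53.6 and 56.6.

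Part of the heat shock list was lower at 6 h, in a count that rests on single arrays. Of 16 heat shock factors and chaperones 5 fell and 0 rose by limma (31.2% lower, beside 5.28% of all genes with a name), with 6 lower and 0 higher at an unadjusted p below 0.05. The other 11 did not pass, and the list median was -0.09. Over all 1003 genes with a name, 153 were lower and 112 higher at an unadjusted p below 0.05. HSP23.9, a small heat shock protein that holds unfolding proteins, read 70.2 and 48.0 at 6 h, against 304 and 593 at 3 h (-2.57 ± 0.42, adjusted p = 0.00598). HSP22.3, another small heat shock protein, read 24.2 and 31.6 at 6 h, against 153 and 71.9 at 3 h (-1.48 ± 0.28, adjusted p = 0.0131). HSP90A1, a cytosolic chaperone of the HSP90 family, read 42.2 and 43.8 at 6 h, against 158 and 99.4 at 3 h (-1.26 ± 0.26, adjusted p = 0.0184). The 3 h arrays of these genes were unequal, and each was above both 6 h arrays.

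HSP90-1 read 893 and 1071 at 6 h, against 1487 and 1483 at 3 h (-0.59 ± 0.14, adjusted p = 0.0378). HSF-08, a heat shock transcription factor, read 87.0 and 92.3 at 6 h, against 376 and 469 at 3 h (-2.05 ± 0.52, adjusted p = 0.0473). The call of HSF-08 ended without each of the 4 compared arrays and without any array of 1, 12 or 24 h. The count of 5 falls became 3 when 3 h replicate 2 was left out, 1 for 3 h replicate 1, 1 for 6 h replicate 1 and 0 for 6 h replicate 2, with adjusted p for the 5 genes up to 0.218, and HSP90-1 also lost its call with quantile normalization. The step after it ran the other way for all 5 genes. Between 6 h and 12 h HSP90A1 rose by 5.16 (adjusted p = 2.27e-06) to a mean of 2088 at 12 h, against 43.0 at 6 h, and HSP23.9 rose by 4.07 (adjusted p = 0.000195) to 1268 at 12 h, against 59.1 at 6 h. Before it, between 1 h and 3 h, these 2 genes differed by -0.03 and -0.15 and did not pass (adjusted p = 0.956 and 0.868). The mean at 6 h was the lowest of the 7 times for all 5 genes. For HSP22.3 and HSF-08 it lay close to another time, with 27.9 at 6 h beside 29.2 at 0.5 h for HSP22.3, and 89.7 at 6 h beside 89.8 at 0 h for HSF-08.

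Of 5 soybean calmodulin genes measured, SCAM-4 and SCAM-5 fell and SCAM-1, SCAM-2 and SCAM-3 did not pass, with differences of 0.42, 0.30 and 0.31. SCAM-5 and SCAM-4 encode the divergent calmodulins of soybean, calcium sensors known from pathogen responses. SCAM-5 read 25.9 and 15.3 at 6 h, against 408 and 111 at 3 h (-2.68 ± 0.49, adjusted p = 0.0108). Only 1 of its 2 arrays at 6 h was above background, so the size of that difference rests partly on background. The 1 other probe set of SCAM-5 was not called. SCAM-4 read 37.9 and 40.8 at 6 h, against 244 and 106 at 3 h (-1.68 ± 0.30, adjusted p = 0.0101). Both were highest in 3 h replicate 1, and 3 h replicate 2 was also above both 6 h arrays. They were 2 of 14 calcium and MAP kinase genes to fall (14.3%, beside 5.28% of all genes with a name), with 0 rising by limma (list median 0.11, and 4 lower and 3 higher at an unadjusted p below 0.05), a count that became 4 when 3 h replicate 2 was left out, 1 for 6 h replicate 1 and 0 for 6 h replicate 2. SCAM-5 had risen by 2.36 between 1 h and 3 h (adjusted p = 0.0347), with 1 of the 2 arrays of 1 h above background, and its level at 3 h, a mean of 260, was the highest of the 7 times. The mean was 20.6 at 6 h and 29.6 at 1 h. For the unadjusted counts of the list, the background was 153 lower and 112 higher among all 1003 genes with a name.

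MMP2, a matrix metalloproteinase of the cell surface, read 190 and 149 at 6 h, against 761 and 1005 at 3 h (-2.27 ± 0.33, adjusted p = 0.00314, held). GOLS, a galactinol synthase that starts the synthesis of protective raffinose sugars, read 112 and 115 at 6 h, against 781 and 360 at 3 h (-2.08 ± 0.35, adjusted p = 0.0068, and 0.0652 without 6 h replicate 2). ADH2, an alcohol dehydrogenase, read 238 and 107 at 6 h, against 490 and 1209 at 3 h. Its groups were wide and did not overlap (-2.15 ± 0.52, adjusted p = 0.0381). The call of ADH2 ended without 3 h replicate 2, either 6 h array or any array of 1, 12 or 24 h. RLK1, a receptor-like kinase, rose, with 258 and 299 at 6 h, against 138 and 99.0 at 3 h (1.14 ± 0.17, adjusted p = 0.00367, and 0.0556 without 6 h replicate 2). SALI5-4A, first described as an aluminium-induced soybean gene, read 238 and 208 at 6 h, against 66.6 and 86.0 at 3 h (1.38 ± 0.27, adjusted p = 0.0155), a call lost when 3 h replicate 1 or either 6 h array was left out (adjusted p up to 0.0956). Averaged over its probe sets, the difference of SALI5-4A was 0.24 (adjusted p = 0.501).

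Fatty acid desaturases, which insert the double bonds of membrane lipids, fell in 3 of 18 desaturation and membrane lipid genes and rose in 0 by limma (16.7% lower, beside 5.28% of all genes with a name), with 6 lower and 1 higher at an unadjusted p below 0.05. Over all 1003 genes with a name, 153 were lower and 112 higher at that unadjusted p. The list median was -0.34, beside -0.02 for all genes with a name. FAD6.1, the plastid enzyme that makes linoleic acid, read 169 and 220 at 6 h, against 561 and 572 at 3 h (-1.48 ± 0.15, adjusted p = 0.000318, held). FAD2-3, its counterpart in the endoplasmic reticulum, read 1156 and 1132 at 6 h, against 2155 and 2320 at 3 h (-0.96 ± 0.13, adjusted p = 0.00200, held). FAD8.2, a plastid enzyme that adds the last double bond of linolenic acid, read 841 and 768 at 6 h, against 1420 and 1451 at 3 h (-0.82 ± 0.20, adjusted p = 0.0413). The replicates of these genes were close and the groups apart, but the call of FAD8.2 ended without each of the 4 compared arrays (adjusted p up to 0.249) and with quantile normalization.

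The relative FAD7-2 again singled out 1 array, with 20.5 and 20.6 at 6 h, against 482 and 25.4 at 3 h. Neither 6 h array was above background, and the gene did not pass (adjusted p = 0.217). Between 6 h and 12 h the 3 desaturases parted. FAD6.1 fell by a further 1.23 (adjusted p = 0.000599) and FAD8.2 by 0.73 (adjusted p = 0.0461), whereas FAD2-3 rose by 0.70 (adjusted p = 0.00701).

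In nitrogen assimilation 1 of 13 genes fell and 0 rose by limma (7.69% called, near the 8.57% of all genes with a name). The list median was -0.16. At an unadjusted p below 0.05, 3 of these genes were lower and 2 higher, beside 153 and 112 of all 1003 genes with a name. NIR, the nitrite reductase of the plastid, read 266 and 192 at 6 h, against 580 and 800 at 3 h (-1.53 ± 0.21, adjusted p = 0.00224, held). Its upstream partners, the inducible nitrate reductases INR1 and INR2, differed by -0.94 and -0.67 and did not pass (adjusted p = 0.185 and 0.325). The ammonium transporter gene AMT1.3 differed by -0.85 (adjusted p = 0.0749), and GDH1, a glutamate dehydrogenase, by 0.59 (adjusted p = 0.0530). Mean NIR was 1340, 981, 723, 690, 229, 1128 and 741 over the 7 times, so 6 h was its lowest time, followed by a rise of 2.23 between 6 h and 12 h (adjusted p = 0.000118).

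Sugar transporter genes moved both ways. SWEET proteins carry sugars across membranes, and of the 9 sugar transport genes 1 rose and 2 fell (33.3% called, beside 8.57% of all genes with a name), with a list median of -0.02. SWEET31 read 56.0 and 108 at 6 h, against 17.5 and 6.68 at 3 h, where neither array was above background. It was at least 3.73-fold higher at 6 h (adjusted p = 0.0130), and the call was lost when the second replicate of 3 h or of 6 h was left out (adjusted p up to 0.14). SWEET34 read 34 and 42.6 at 6 h, against 150 and 177 at 3 h (-1.72 ± 0.22, adjusted p = 0.0017, held). SWEET29 read 3.05 and 15.1 at 6 h, neither above background, against 66.4 and 57.8 at 3 h. It was at least 3.00-fold lower at 6 h (adjusted p = 0.0106, up to 0.0826 without 3 h replicate 1 or 6 h replicate 1). High SWEET31 was seen at 6 h alone, with a mean of 82.2, against 3.42 to 14.1 at the other 6 times, and it fell by 1.74 between 6 h and 12 h (adjusted p = 0.00948), where 1 of the 2 arrays was above background.

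Aquaporins form the water channels of the plasma membrane (PIP), the tonoplast and other membranes, and some NIP members also carry solutes such as boron and silicon. Of 19 genes 2 rose and 4 fell (10.5% and 21.1%, beside 3.29% and 5.28% of all genes with a name), with a list median of -0.18. PIP2-10 read 27.3 and 29.8 at 6 h, against 174 and 84.2 at 3 h (-1.63 ± 0.26, adjusted p = 0.00572, and 0.0514 without 6 h replicate 2). NIP2-2 read 9.26 and 10.5 at 6 h, neither above background, against 40.5 and 41.9 at 3 h, at least 1.99-fold lower (adjusted p = 0.00193, held). SIP1-6 fell by 1.27 (adjusted p = 0.0255), and PIP2-13 by 1.23 (adjusted p = 0.0446), with 957 and 1317 at 6 h, against 3204 and 2199 at 3 h. With 3 h replicate 2 left out 2 aquaporin genes were called lower, likewise 2 with 6 h replicate 1 left out, and 1 with 6 h replicate 2 left out.

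NIP1-8 read 342 and 515 at 6 h, against 227 and 206 at 3 h (0.91 ± 0.18, adjusted p = 0.0186), and PIP2-4 read 1926 and 2126 at 6 h, against 960 and 1281 at 3 h (0.86 ± 0.19, adjusted p = 0.0240). PIP2-4 had fallen between 1 h and 3 h, by 1.11 (adjusted p = 0.0189), and its 6 h mean of 2026 lay within the range of its means at 0, 0.5 and 1 h, 1873 to 2406. The number of rises was 0 when 3 h replicate 1 or 6 h replicate 2 was left out and 1 for each of the other pair of arrays.

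Of 39 phenylpropanoid genes 1 rose and 2 fell (7.69% called, near the 8.57% of all genes with a name), and the list median was -0.31. CYP98A2, a cytochrome P450 that hydroxylates the ring on the way to lignin, read 333 and 222 at 6 h, against 549 and 546 at 3 h (-0.97 ± 0.21, adjusted p = 0.0228). 4CL4, a 4-coumarate:CoA ligase, read 63.5 and 73.1 at 6 h, against 213 and 115 at 3 h (-1.04 ± 0.25, adjusted p = 0.0371). ANS2, an anthocyanidin synthase, read 116 and 141 at 6 h, against 51.2 and 59.1 at 3 h (1.02 ± 0.24, adjusted p = 0.0365). With 1 array left out the adjusted p of these 3 genes reached 0.214, 0.197 and 0.249: the call of ANS2 ended without each of the 4 compared arrays, that of CYP98A2 with either 3 h array or 6 h replicate 2 left out, and that of 4CL4 with 3 h replicate 1 or either 6 h array left out.

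GSTU28, a tau-class glutathione transferase, read 625 and 560 at 6 h, against 314 and 331 at 3 h (0.84 ± 0.13, adjusted p = 0.00545, and 0.0504 without 6 h replicate 1). It and GSTU42, which fell, were the 2 of 24 glutathione transferase genes that changed (8.33%, near the 8.57% of all genes with a name). GSTU42 read 2.67 and 4.10 at 6 h, against 38.7 and 15.3 at 3 h, with 1 of these 4 arrays above background. GLYII-6, a glyoxalase II that helps remove methylglyoxal, read 274 and 210 at 6 h, against 128 and 124 at 3 h (0.85 ± 0.22, adjusted p = 0.0491), the 1 call of 10 in its list (10%). The call of GLYII-6 ended without each of the 4 compared arrays and without any array of 0.5, 1, 12 or 24 h. PEPC4, a phosphoenolpyruvate carboxylase that fixes bicarbonate into organic acids, read 123 and 58.7 at 6 h, against 201 and 318 at 3 h. The groups did not overlap and PEPC4 was the 1 of 9 PEP carboxylase genes that fell (11.1% of the list; -1.40 ± 0.30, adjusted p = 0.0221, and up to 0.198 without 3 h replicate 2 or 6 h replicate 2). PHR, for which the annotation gives a symbol only, read 17.8 and 13.2 at 6 h, neither above background, against 71.7 and 74.5 at 3 h, at least 3.54-fold lower (adjusted p = 0.000701, held), the 1 fall among 20 genes of the phosphate list (5%, near the 5.28% of all genes with a name). The 1 other probe set of PHR was not called.

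Jasmonate, ethylene and DREB, SnRK2 and abscisic acid, antioxidant, endoplasmic reticulum stress and defence lists had 0 calls in 77 genes by limma. Among all genes with a name 8.57% were called. In these 77 genes, 6 were higher and 10 lower at an unadjusted p below 0.05. Of all 1003 genes with a name, 112 were higher and 153 lower at that p. The member with the lowest p of each of these 6 lists did not pass. LOX7, a lipoxygenase, read 908 and 1829 at 6 h, against 945 and 487 at 3 h, overlapping groups with a difference of 0.91 (adjusted p = 0.153). SPK-3, an SnRK2-type kinase of the abscisic acid and osmotic pathway, read 132 and 153 at 6 h, against 96.6 and 99.5 at 3 h, a difference of 0.47 (adjusted p = 0.117). VPE2, a vacuolar processing enzyme linked to cell death, read 1446 and 715 at 6 h, against 309 and 210 at 3 h, apart but wide (1.93 ± 0.60, adjusted p = 0.0944).

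AOX1, the alternative oxidase of mitochondria, differed by -1.05 (adjusted p = 0.174), PAD4, a regulator of defence signalling, by -1.49 (adjusted p = 0.0822), and DREB5, above background on 1 of 2 arrays at 6 h, by -1.90 (adjusted p = 0.175). Without 3 h replicate 2 the jasmonate genes AOC3, AOC4, AOS1 and AOS2 and DREB5 were lower at 6 h, as the lone 3 h array was then the bright one. For AOS1 the arrays read 63.1 and 60.4 at 6 h, against 238 and 51.2 at 3 h, and its difference over all arrays was -0.75 (adjusted p = 0.387).

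**Figure D4:**
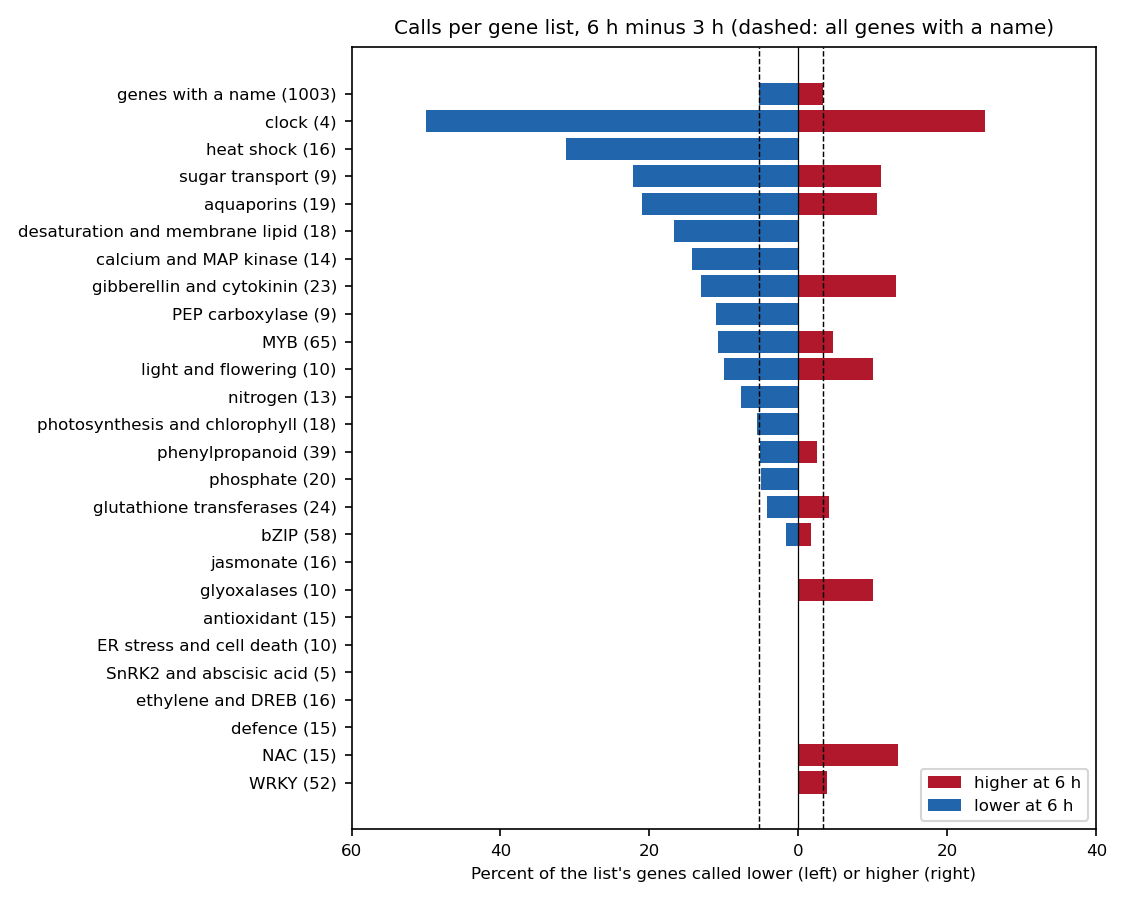
Percent of the genes of each list that fell (blue, drawn to the left) or rose (red, drawn to the right) at 6 h against 3 h, with the number of genes in brackets; the dashed lines mark all 1003 genes with a name, 5.28% lower and 3.29% higher. Heat shock genes fell in 31.2% of cases with no rise, the bars of the clock list stand for 4 genes only, and the 6 lists with 0 calls have no bar.

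Among genes with a symbol, the largest rise and the largest fall were in genes known only by a LOC number. LOC100779717 read 11.7 and 11.8 at 6 h, below background, against 380 and 436 at 3 h, and was at least 19.7-fold lower (adjusted p = 1.4e-05, the smallest of all). LOC100795628 read 20.7 and 31.8 at 6 h, against 369 and 385 at 3 h (-3.23 ± 0.19, adjusted p = 2.34e-05). LOC100500561 read 117 and 82.2 at 6 h, against 1016 and 526 at 3 h (-2.71 ± 0.30, adjusted p = 0.000686), and these 3 calls held. LOC100500670 read 64.8 and 46.5 at 6 h, against 1055 and 221 at 3 h (-2.82 ± 0.52, adjusted p = 0.0112, and 0.111 without 6 h replicate 2).

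On the other side, LOC100788166 read 1316 and 1235 at 6 h, against 140 and 216 at 3 h (2.76 ± 0.31, adjusted p = 0.000685), and LOC100783357 read 924 and 788 at 6 h, against 132 and 136 at 3 h (2.54 ± 0.27, adjusted p = 0.00055). LOC100500657 read 202 and 126 at 6 h, against 17.8 and 11.4 at 3 h, neither of those above background, and was at least 7.63-fold higher (adjusted p = 0.000144). LOC100306232 read 433 and 457 at 6 h, against 133 and 61.7 at 3 h (2.10 ± 0.28, adjusted p = 0.00202). All 4 rises held, and in all 4 the mean at 12 h was also above that at 3 h. LOC100783357 had already risen between 1 h and 3 h, by 1.98 (adjusted p = 0.0109), and LOC100788166 by 1.33 (adjusted p = 0.0489), so for these 2 the step went on in the direction of the step before it. LOC100779717 had means of 685, 824, 720, 408, 11.7, 4.35 and 1197 over the 7 times.

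The step was set against its neighbours, with which it shares arrays and which last 2 h and 6 h, not 3 h. The step from 1 h to 3 h had 899 calls (2.39%) and the step from 6 h to 12 h had 3581 (9.53%), beside 1874 (4.98%) here. The difference between the step and the one before it, tested directly in the same fit, passed for 676 probe sets (1.8%), with 252 positive and 424 negative. The difference from the step after it passed for 1846 (4.91%), with 995 positive and 851 negative. Both 3 h arrays are shared by the step and the one before it, and the first count fell to 49 without 3 h replicate 1 but was 730 without 3 h replicate 2. It fell to 83 without 6 h replicate 2. It was 239 to 432 without 6 h replicate 1 or any array of 0.5, 1 or 24 h. The second fell to 198 without 6 h replicate 2 and to 408 without 6 h replicate 1.

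Among named genes, the difference from the earlier step passed for LUXC (2.08, adjusted p = 0.0191), LCL3 (-1.95, adjusted p = 0.0386) and MYB134 (-1.83, adjusted p = 0.00973), which had differences between 1 h and 3 h of -0.02, 0.08 and -0.36 that did not pass. It also passed for GAI2 (-2.42, adjusted p = 0.00594), GASA22 (-2.86, adjusted p = 0.00333), GASA11 (3.53, adjusted p = 0.0144) and RLK1 (2.39, adjusted p = 0.00628), whose earlier step had run the other way. RLK1 had fallen by 1.25 between 1 h and 3 h (adjusted p = 0.0106), and its mean at 6 h was 278, beside 301 at 1 h. The difference from the later step was largest among named genes for HSP23.9 (-6.64, adjusted p = 0.000766) and HSP90A1 (-6.42, adjusted p = 4.89e-05), and it also passed for GASA22 (-5.19, adjusted p = 1.74e-05) and NIR (-3.76, adjusted p = 0.000351). For MYB134 and FAD6.1, which fell in both steps, it did not pass (0.56, adjusted p = 0.235, and -0.24, adjusted p = 0.65). The 6 h minus 3 h difference by which these genes were picked is part of both comparisons of steps. How far the result of each gene here rests on single arrays is not given.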

How the data were processed

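Total RNA of leaves (TRIzol) was labelled with biotin and read on the 1-colour Affymetrix soybean array, per the labels' protocols. The deposited values are linear intensities, 1 for each probe set on each array, and how the authors summarised and normalized them is not given in the sources used here. No sequence, genome position or newer gene name was used, since no identifier of the annotation (8677 soybean probe sets with 1 symbol, 370 with several, 28546 with none) matched the gene table at hand.

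Of 61170 probe sets, the 37593 soybean ones were tested; 23350 of a water mould and a nematode gave the background and 227 control ones were left out. Arrays were brought to the same soybean median, 56.04, which moved the step by 0.01 log2, and log2(value + 16) was taken. No filter on dim probe sets was applied; 3 of the calls were not above background in either group. With limma 3.58.1 in R 4.3.3, 7 group means were fitted to all 14 arrays (lmFit, eBayes; 7 residual and 4.25 prior degrees of freedom) and the contrast 6 h minus 3 h was tested two-sided, with Benjamini-Hochberg adjustment over the 37593 and a threshold of 0.05. The small number of arrays limits the precision (median SE 0.190). The code was tested on simulated data with fixed seeds. The p-values rest on the spread between pools of 3 plants, shared over the 7 times and moderated by limma.

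Each gene was read from its brightest probe set, by the mean of all arrays. Named genes were, among genes past the test, above background on both arrays of a group and with groups not overlapping, the 12 largest rises and falls with a name, the 4 largest with a LOC number, up to 4 members of each of 25 lists by lowest p (or, with no member past the test, the 1 of lowest p) and every clock gene. MYB70, MYB93, MYB52, SIP1-6, PIP2-13, GA2OX6, GSTU42, FAD7-2, INR1, INR2, AMT1.3, GDH1, SCAM-1, SCAM-2, SCAM-3 and the genes on which the 3 h arrays differed were named after their values were seen. Members and lists were chosen with earlier results of these data known. Alternatives were other scalings, pseudocounts, array sets, variance settings and probe set choices, a replicate block, a minimum difference of log2 0.5 and each array left out in turn.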

Additional observations from a re-analysis of the deposited data

How the results depend on the processing

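Of the 62 named genes that passed, none reversed its direction under any alternative. Leaving out 1 array could not reverse it, since these genes were picked with groups not overlapping and other times do not enter the difference. The scaling alternatives ended 3 calls with quantile normalization (COL2A, FAD8.2 and HSP90-1) and 0 with median centring or no scaling. Calls ended for 20 of the 62 with log2(value + 1), for 28 with only the 4 compared arrays and for 39 with a minimum difference of log2 0.5, and for 1 to 6 with log2(value + 64), the trend and robust settings or all probe sets of the array. The mean of all probe sets of a gene ended those of NAC34, SALI5-4A and PIP2-4. Leaving out either 24 h array also ended the calls of PHYA, COL2A, FAD8.2, HSP90-1, ANS2 and 4CL4. Why these calls ended was not tested. The fit of the 4 compared arrays has fewer arrays, and the minimum difference sets a stricter hypothesis. The 1874 changed probe sets numbered 1155 with log2(value + 1), 686 with only the 4 arrays, 228 with the minimum difference, and 372 to 2205 with 1 array left out. The 40.93% that were higher became 45.74% with quantile normalization, 37.32% with log2(value + 1), 46.59% with log2(value + 64), 35.42% with the 4 arrays, 28.51% with the minimum difference and 26.16 to 42% with 1 array left out, lowest without 3 h replicate 2. The 86 changed genes with a name became 52, 40 and 16 with log2(value + 1), the 4 arrays and the minimum difference, and 27 to 97 with 1 array left out. The 676 probe sets that differed from the step before became 138, 1106 and 59 with log2(value + 1), log2(value + 64) and the minimum difference, and 49 to 916 with 1 array left out. The 1846 that differed from the step after became 1089 with log2(value + 1), 423 with the minimum difference, and 198 to 2255 with 1 array left out; the 4 arrays alone give no such tests.

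With the replicate number as a block the count was 1670 and 5 named calls ended, among them NAC34 and ANS2. The replicate differences of 6 h and 3 h correlated at -0.139, and over the 21 pairs of times the range was -0.219 to 0.226. Such a correlation cannot tell whether the numbers pair the samples. A replicate block with the numbers of 3 h crossed, chosen after seeing the data, gave 1782. Changes of dim probe sets are limited by the background. As for LUXC, GAI2, PHR and SCAM-5, no other probe set was called for NAC34, SALI5-4A, PIP2-4, PEPC4, BZIP28 and GLYII-6. Only some of the other probe sets were called for GASA14, HSP23.9, NIR, FAD8.2, CYP98A2 and HSP90-1.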

Other observations

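Other transcripts described here were picked after their values were seen. Arginine decarboxylase, ADC, which makes agmatine for polyamine synthesis, was lower at 6 h on 5 of 5 probe sets, with differences of -1.57 to -1.04. Its brightest probe set read 361 and 420 at 6 h, against 993 and 796 at 3 h (adjusted p = 0.00514), with no overlap. NHX1, a sodium/proton exchanger of the vacuole, fell on 1 of 4 probe sets, with 250 and 235 at 6 h, against 467 and 565 at 3 h (-1.04, adjusted p = 0.0200). Its brightest probe set differed by -0.83 and did not pass (adjusted p = 0.0583). MIPS, which makes inositol phosphate, fell on 1 of 2 probe sets, with 1356 and 1422 at 6 h, against 3277 and 2708 at 3 h (-1.09, adjusted p = 0.0166), while its brighter probe set differed by -0.23 and did not pass. VSPA, a vegetative storage protein of leaves, rose on 1 of 8 probe sets, while its brightest differed by 0.37 and did not pass (adjusted p = 0.484). The VSPA probe set that rose read 1686 and 1849 at 6 h, against 653 and 519 at 3 h (1.57, adjusted p = 0.00065). ALDH7B1, an aldehyde dehydrogenase, read 522 and 439 at 6 h, against 220 and 200 at 3 h (1.13, adjusted p = 0.0068). AFB3B, of the auxin receptor F-box family, rose on both of its probe sets, by 0.80 and 0.82. COI1, the jasmonate receptor F-box protein, rose on 2 of 6, while its brightest probe set differed by -0.02 and did not pass (adjusted p = 0.981). With 1 of the 4 arrays left out, adjusted p stayed at or below 0.0132 for that VSPA probe set and reached 0.104 for ADC, 0.15 for NHX1, 0.11 for MIPS, 0.0601 for ALDH7B1, 0.209 for AFB3B and 0.202 for COI1.

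Probe sets with no symbol held large changes too. One of the rises read 276 and 247 at 6 h, against 5.51 and 5.20 at 3 h, where it was not above background (adjusted p = 2.34e-05). Another read 570 and 671 at 6 h, against 50.1 and 40.7 at 3 h (3.37, adjusted p = 6.67e-05). On the lower side, 1 probe set read 112 and 118 at 6 h, against 1158 and 1712 at 3 h (-3.44, adjusted p = 0.00524), and another read 16.6 and 26.8 at 6 h, against 264 and 458 at 3 h (-3.28, adjusted p = 6.67e-05), with 1 of its 6 h arrays above background. Of the 23350 probe sets of other organisms, fitted and adjusted apart from the soybean ones, 1 passed, and it was lower at 6 h.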
